A study of Mus musculus with 11 samples.

Results

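The comparison set Myc-induced mouse soleus against control soleus, across every gene of the soleus expression table. Its members were the 7 soleus libraries of the 11 libraries in the series, 4 labelled Myc and 3 labelled control, and the 13121 genes listed for them. Per the labels, the Myc group came from adult mice given doxycycline overnight to overexpress myc, with tissue taken 12 h after the drug was withdrawn, and the control group came from age-matched mice. All animals were 2.5 months old. The labels give neither the genotype of the controls nor whether they received doxycycline, nor which promoter drove the transgene or which Myc sequence it carried. Soleus was flash frozen and total RNA was sequenced. No label says that the libraries of a group came from separate animals, so the p-values below measure the spread between these samples.

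Myc is a transcription factor that binds DNA with its partner Max, preferring the E-box CACGTG, and in many tissues it is known for driving genes that make ribosomes, nucleotides and proteins. Soleus, a muscle of the hindlimb, helps to hold posture and has slow, oxidative fibres, but not these alone. In the control libraries slow-fibre sarcomere genes took 6.07% of reads on average and fast-fibre sarcomere genes took 5.96%. Adult muscle normally holds little Myc, and its transcript is known to appear after loading or exercise, when ribosome production rises. The series' design text also concerns late-life exercise and quadriceps, which are not analysed here.

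Values are normalised reads, the authors' estimated reads per gene divided by a factor for each library, and n = 3 controls and n = 4 Myc-labelled libraries throughout. Depth was 11090000 to 14850000 estimated reads, rounded. The slow myosin gene Myh7 held 193242 to 266460.0 normalised reads across the 7 libraries, and 7 slow-fibre marker genes took 4.16% ± 0.349 of control libraries and 4.23% ± 0.524 of Myc-labelled libraries (SD). The Myc row itself did not separate the groups: it held 30, 54.3 and 28.2 in controls and 26.3, 31, 28.8 and 27.7 in Myc-labelled libraries (log2 change -0.33, SE 0.40, limma adjusted p = 0.69). Whether that row counts reads of the transgene was not tested, so group directions rest on the labels. Along the first principal component, which held 31.6% of the variance, the controls stood at -22.8, -41.2 and -29.1, and Myc-labelled replicates 1 to 4 stood at 6.98, 7.97, 36.4 and 41.7. Myc-labelled replicates 3 and 4 were thus the farthest from the controls, and these 2 libraries were also the lowest for tendon and red-cell markers, described at the end. For most single genes described below, a call lost without both is given beside it. For lists it is given only in part, and several other lists also lost calls. Rises went from 9 to 6 for RNA polymerase I, 15 to 10 for elongation and release and 14 to 10 for cytosolic synthetases. They went from 6 to 4 for mitochondrial synthetases, 16 to 11 for nuclear pores and transport and 12 to 8 for mitochondrial import.

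Myc-labelled soleus had many more higher than lower genes. Of 12745 genes tested, 900 (7.06%) were higher and 284 (2.23%) were lower at an adjusted p under 0.05 (limma, Benjamini-Hochberg), 9.29% in all. At least 2-fold, 262 (2.06%) were higher and 32 (0.251%) were lower. At least 4-fold, the counts were 25 and 5. The median log2 change was 0.74 among higher genes, -0.56 among lower genes and -0.03 over all genes tested. Higher genes together took 5.12% of the reads in controls and 8.29% in Myc-labelled libraries, a description of the genes chosen by that test. In 894 higher and 272 lower genes the 2 groups did not overlap, where over all genes tested 12.7% were without overlap on the higher side and 8.35% on the lower side. With any 1 of the 7 libraries left out, 543 higher and 65 lower genes kept their call in every such fit. The lower calls were less stable. Their number was 157, 117 and 167 without control replicate 1, 2 and 3. It was 154 without Myc-labelled replicate 4 and 181 under library-size scaling. A fit with fewer libraries also has less power, so a lost call need not reflect the library left out. Without both Myc-labelled replicates 3 and 4, 483 genes were higher and 147 lower, of which 477 and 96 were among the calls above.

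**Figure D1:**
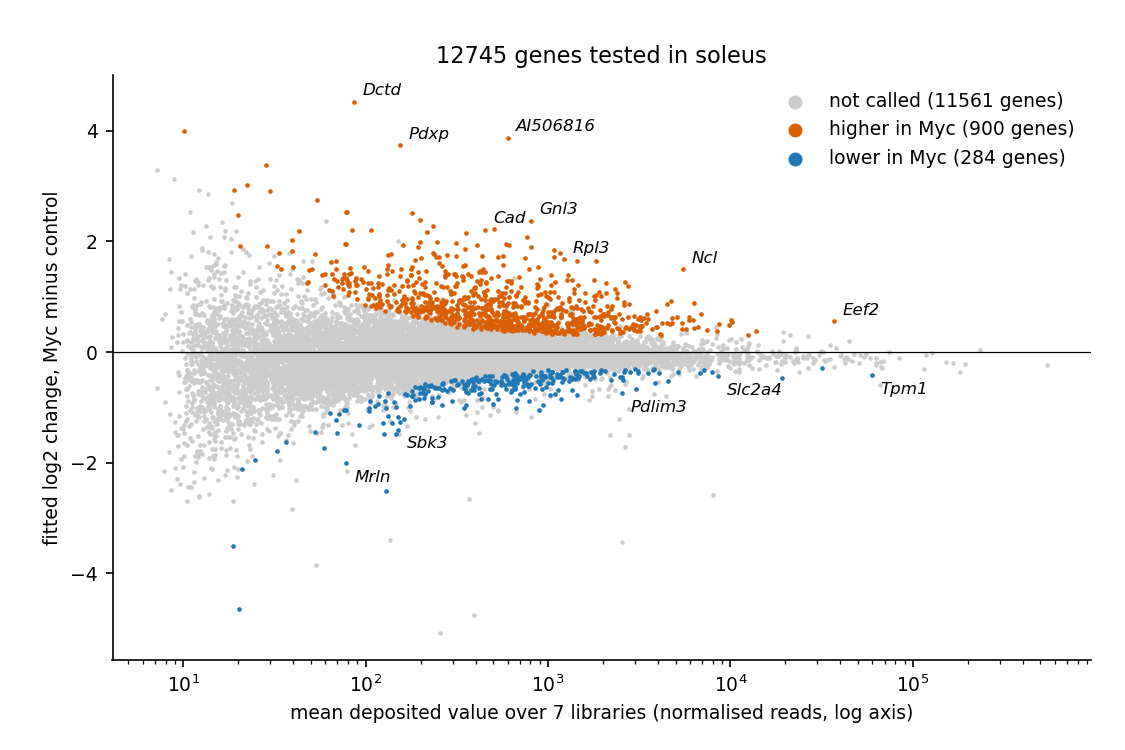
Fitted log2 change (Myc minus control, vertical axis) of 12745 genes against the mean normalised reads over 7 libraries (log horizontal axis), with each point a gene and called genes in colour. The 900 higher genes outnumber the 284 lower genes in each class of level, and the most abundant called genes, such as Eef2 and Tpm1, changed by under 1 on the log2 scale.

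Calls were commoner among abundant genes, where the error was smaller. Among the 3187 genes of lowest mean level 1.22% of genes were called higher and 0.408% lower, and the median SE was 0.467. Among the 3186 genes of highest mean level 11.8% were higher and 4.14% lower, with a median SE of 0.109. The called higher genes of the highest class had a median log2 change of 0.56, against 1.5 in the lowest class. The backgrounds given beside the gene lists below are over all genes tested and are not matched for level.

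The largest rise was that of Dctd, the dCMP deaminase that feeds thymidylate synthesis. It held 5.30, 11.6 and 2.35 normalised reads in the controls and 148, 146, 145 and 148 in the Myc-labelled libraries (log2 change 4.52, SE 0.43, limma adjusted p = 3.6e-06). The 4 Myc-labelled values lay within a few reads of each other, and all stood far above the highest control. AI506816, an uncharacterised expressed sequence, went from 67.2, 79.5 and 48.1 to 1214, 1142, 495 and 1165 (log2 change 3.87, SE 0.34, limma adjusted p = 1.8e-04). Its Myc-labelled replicate 3 was the lowest of its group and still above every control. Pdxp, which encodes a pyridoxal phosphate phosphatase, went from 31.8, 18.4 and 9.39 to 256, 299.7, 178 and 286 (log2 change 3.74, SE 0.35, limma adjusted p = 4.0e-06). The groups did not overlap for any of these genes.

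Several of the next largest rises belonged to RNA and nucleotide enzymes. Mettl1, which methylates guanosine in tRNA, held 59.2, 30.1 and 58.7 in controls and 234, 278, 264 and 332 in Myc-labelled libraries (log2 change 2.52, SE 0.26, limma adjusted p = 6.0e-06). Trmt61a, the catalytic subunit of a tRNA adenine methyltransferase, held 60.1, 75.7 and 82.2 in controls against 331, 311, 356 and 431 with Myc (log2 change 2.28, SE 0.19, limma adjusted p = 1.1e-06). Gnl3, or nucleostemin, a GTPase of the nucleolus, held 216, 276 and 219.5 in controls against 1146, 1186, 1399 and 1186 with Myc (log2 change 2.37, SE 0.13, limma adjusted p = 2.1e-08). In each of these genes the lowest Myc-labelled library was above the highest control by more than the range of the controls. Cad, the enzyme that starts pyrimidine synthesis, held 137, 163 and 139 in controls against 606, 684, 743 and 686 with Myc (log2 change 2.21, SE 0.14, limma adjusted p = 6.7e-08). Shmt1, the cytosolic enzyme that moves carbon from serine to folate, held 42.4, 66.9 and 64.6 in controls against 313, 242, 373 and 284 with Myc (log2 change 2.38, SE 0.23, limma adjusted p = 3.7e-06). Nhp2, a protein of the ribonucleoproteins that guide RNA pseudouridylation, rose by 2.23 on the log2 scale. The pseudouridine synthase-like gene Pus7l rose by 2.21.

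The other members of the 15 largest rises had no shared role. They were Ube2cbp (2.75), Arhgdig (2.53), Zfp783, a zinc finger gene (2.52), Dhrs13, of the short-chain dehydrogenase family (2.21), and Lingo3, a leucine-rich repeat membrane protein gene (2.17). Arhgdig went from 6.19, 28.1 and 36.4 to 92.5, 95.4, 101 and 185 (limma adjusted p = 0.0073). Its highest value was in Myc-labelled replicate 4, and its call was lost without Myc-labelled replicates 3 and 4 (limma adjusted p = 0.087). All 15 kept their call with any 1 library left out. This ranking takes calls without overlap whose mean reached 50 normalised reads, and leaves out predicted names.

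**Figure D2:**
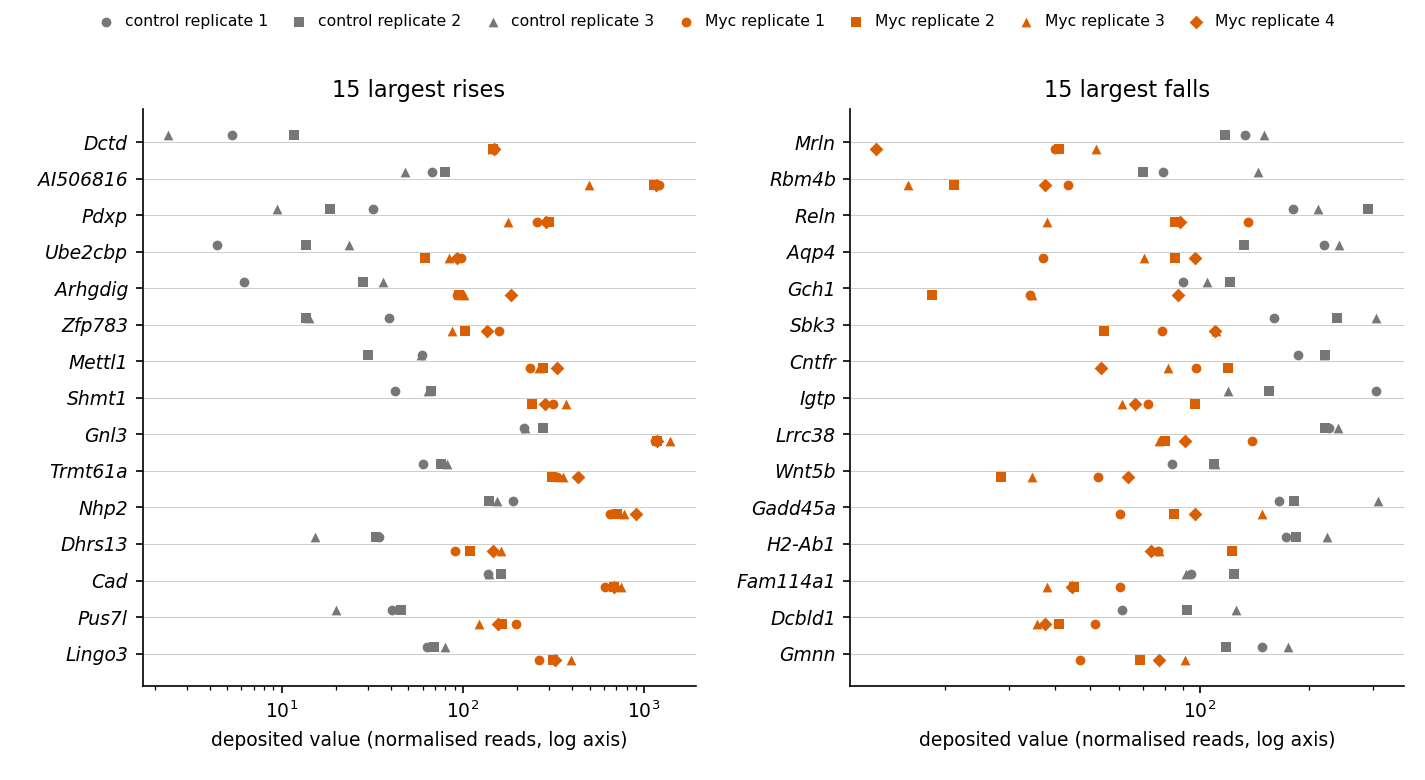
Normalised reads (log horizontal axis) of the 15 largest rises and 15 largest falls in each library, with controls in grey and Myc-labelled libraries in orange, 1 marker shape for each replicate. The groups do not overlap for any gene shown, which the ranking required, and Dctd spans 2.35 to 11.6 in controls and 145 to 148 in Myc-labelled libraries.

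The promoters of the higher genes held the E-box more often than other promoters, above all just after the start site, which is given as a description with no test. Promoter windows of 300 bases, from 250 before to 50 after the annotated start, came from RefSeq (GRCm38.p6) and were matched by symbol to 8069 tested genes with a single window. The canonical E-box, CACGTG, which reads the same on both strands, was in 10.6% of all these windows, in 18.6% of the windows of higher genes (118 of 633) and in 27.4% of those at least 2-fold higher (51 of 186). Lower genes had it in 8.43% (14 of 166) and genes not called in 9.93%. The related CACGCG, searched on both strands as CACGCG or CGCGTG and sharing the bases CACG with the E-box, was in 18.4% of all windows, 27.2% for higher genes and 9.64% for lower genes. CAGCTG, an E-box form used by myogenic factors, went the other way: 15% of all windows, 9.64% for higher genes and 21.7% for lower genes. Median GC content was 61.3% for higher genes, 62.0% for lower genes and 61.3% for all.

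The widest gap between these sets lay in the 50 bases after the start. In that stretch CACGTG was in 7.11% of the promoters of higher genes and 15.1% of those at least 2-fold higher, against 1.21% for genes not called and 1.20% for lower genes. Read the other way, 135 tested genes had CACGTG within 50 bases after the start, and 45 of them (33.3%) were called higher. Of 719 genes with CACGTG only before the start 73 (10.2%) were called higher, and of 7215 genes with no CACGTG in the window 515 (7.14%) were. The median log2 change of these 3 sets was 0.23, 0.03 and -0.03. A match here is a description of the letters in the window, and no binding was measured.

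**Figure D3:**
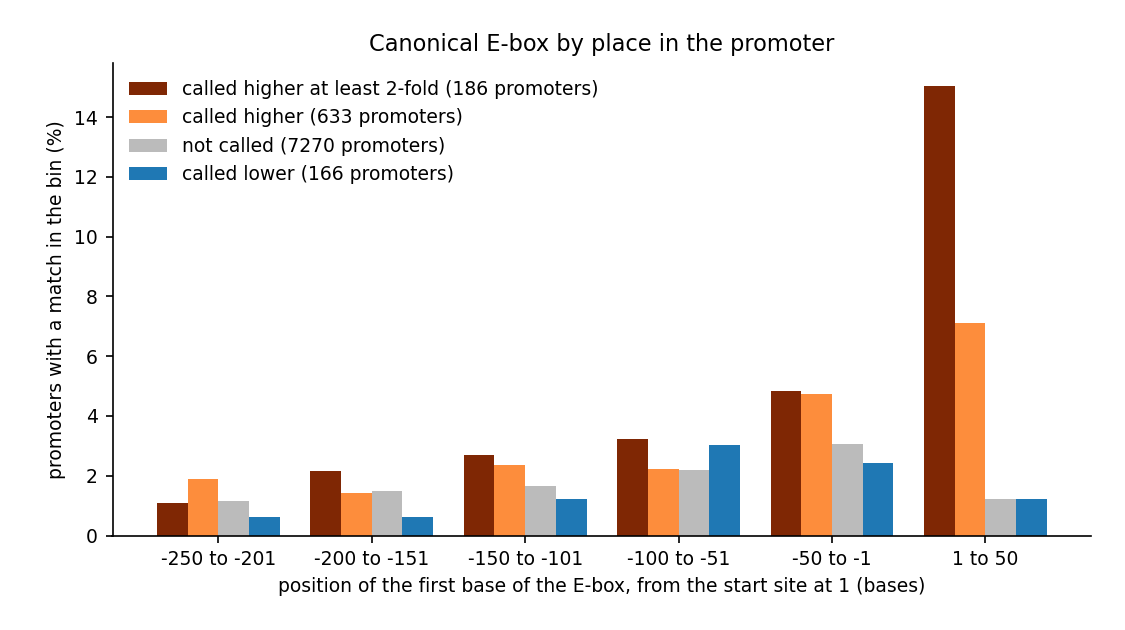
Percent of promoters with CACGTG in each 50-base bin, by distance of its first base from the start site (horizontal axis, bases), for genes at least 2-fold higher, higher, not called and lower. In the last bin, 1 to 50, the bars stand at 15.1%, 7.11%, 1.21% and 1.20%, while in the bin from -50 to -1 they stand at 4.84%, 4.74%, 3.05% and 2.41%.

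The 12 higher genes with the smallest p among those with CACGTG after the start are shown to let the sites be compared. They were picked by that rule after their values were seen. Each line gives 30 bases, 5′ to 3′ on the gene's strand, with the E-box in capitals.
Trmt61a: ccgccgtggagcCACGTGtggagccgggag
Mybbp1a: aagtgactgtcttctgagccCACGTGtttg
Ears2: cgcgaaggagccCACGTGtgtgtttctagt
Grwd1: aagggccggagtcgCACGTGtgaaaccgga
Wdr77: gcagaggtacacCACGTGtgcggtccctcc
Tsr1: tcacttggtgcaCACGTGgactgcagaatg
Wdr43: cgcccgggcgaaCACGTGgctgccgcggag
Ipo4: tgtcggagtctcCACGTGccgatcctcccc
Mettl1: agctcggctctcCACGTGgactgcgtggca
Mdn1: caacgtgaattccttcacCACGTGtgtgtc
Apex1: gagccctcgaatCACGTGaccacaccaatc
Sdad1: agcggcgtgtccCACGTGccgtttccggtt
These sites lie within the first bases of the annotated transcripts. In GRCm38.p6 the Trmt61a line is chr12:111678118-111678147, plus strand, with the E-box starting 26 bases from the start site counted as 1. The Mettl1 line is chr10:127041950-127041979, plus strand, with its E-box at 31. The Tsr1 line is chr11:74898092-74898121, plus strand, at 25, and the Mdn1 line is chr4:32657139-32657168, plus strand, at 39. The other lines are chr11:72441347-72441376, plus strand for Mybbp1a, chr7:122067048-122067077, minus strand for Ears2, chr7:45830740-45830769, minus strand for Grwd1, chr3:105959495-105959524, plus strand for Wdr77, chr17:71616220-71616249, plus strand for Wdr43, chr14:55635653-55635682, minus strand for Ipo4, chr14:50924937-50924966, plus strand for Apex1 and chr5:92309986-92310015, minus strand for Sdad1.

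At least 6 of these 12 genes serve the nucleolus and ribosome assembly. Mybbp1a and Grwd1 encode nucleolar proteins, and Tsr1, Wdr43, Mdn1 and Sdad1 act in assembling the ribosomal subunits. Tsr1 held 439.7, 392 and 424 in controls and 1097, 1015, 1567 and 1223 in Myc-labelled libraries (log2 change 1.53, SE 0.14, limma adjusted p = 1.7e-06). Mdn1, a very large remodelling ATPase of the large subunit, held 128, 69.8 and 82.2 in controls against 409.8, 379, 351 and 311 with Myc (log2 change 1.99, SE 0.21, limma adjusted p = 9.2e-06). Grwd1 held 224, 180.4 and 158 in controls against 607, 541, 684 and 649 with Myc (log2 change 1.73, SE 0.15, limma adjusted p = 1.4e-06). Mybbp1a held 1582, 1509 and 1617 in controls against 3282, 3298, 4158 and 3722 with Myc (log2 change 1.20, SE 0.10, limma adjusted p = 1.2e-06). The groups did not overlap for these genes, and each Myc-labelled library held more than any control. Ears2, the mitochondrial glutamyl-tRNA synthetase, rose by 1.97, Wdr77, the partner of the arginine methyltransferase Prmt5, by 1.39, Ipo4, a nuclear import receptor, by 1.13 and Apex1, a base-excision repair endonuclease, by 1.28, all on the log2 scale.

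Among the 15 largest rises, 12 had a single window, and 4 of these held CACGTG and 4 others CACGCG or CGCGTG. Their E-boxes not shown above, and 3 of the variants, follow in the same form.
Ube2cbp: ctgctacggccgCACGTGctcccaccctgt
Zfp783: gggccagcagggCACGTGgcttgggaccgt
Nhp2: ggaggcggcggcCGCGTGgttcctctatgc
Pdxp: gagcgcagcgcgCGCGTGcgagcggccagc
Shmt1: gcgggcgaatcgCGCGTGggcagctggggg
The E-boxes of Ube2cbp (chr9:86464869-86464898, minus strand) and Zfp783 (chr6:47943180-47943209, plus strand) began at 31 and 18 bases from the start. The variants of Nhp2 (chr11:51619764-51619793, plus strand) and Pdxp (chr15:78913933-78913962, plus strand) began at 4 and 27, and that of Shmt1 (chr11:60811339-60811368, minus strand) at -91, before the start. The windows of AI506816, Gnl3, Cad and Pus7l held none of the 3 spellings. Of the 15 largest falls 9 had a single window, and Reln, with 1 CACGTG and 2 variants, and Rbm4b, with 1 variant, were the ones with a match.

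Large-subunit assembly and then the small-subunit processome held the highest shares of risen genes among the 60 gene lists described. Ribosomes are built in the nucleolus, where pre-rRNA is cut and modified and the subunits are assembled by factors that leave before translation starts. Of 54 tested genes for large-subunit assembly 46 rose and 0 fell, with a median log2 change of 1.07. Of 44 genes of the small-subunit processome 35 rose and 0 fell (median 0.81), and of 16 core proteins of small nucleolar ribonucleoproteins 11 rose and 0 fell (median 0.97). Over these 3 lists 92 of 114 genes rose, against 7.06% of all genes tested, and 81 kept their call with any 1 library left out. Without Myc-labelled replicates 3 and 4 the counts were 39, 26 and 9, and the medians were 0.97, 0.73 and 0.81.

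Single assembly factors showed the separation of the groups. Heatr1, a large scaffold of the processome, held 91.9, 149 and 119.7 normalised reads in controls and 505, 511, 540.0 and 556 in Myc-labelled libraries (log2 change 2.15, SE 0.17, limma adjusted p = 5.7e-07). Rrp12, an export factor of pre-ribosomes, held 673, 648 and 612 in controls against 1932, 1915, 2155 and 2113 with Myc (log2 change 1.65, SE 0.10, limma adjusted p = 3.8e-08). Pwp2 of the processome held 329.6, 294 and 356 in controls against 1008, 945, 1162 and 1153 with Myc (log2 change 1.70, SE 0.12, limma adjusted p = 2.0e-07). All Myc-labelled libraries stood above all controls for these genes. Ftsj3, an rRNA methyltransferase, held 429, 434 and 438 in controls against 1414, 1333, 1789 and 1708 with Myc (log2 change 1.83, SE 0.12, limma adjusted p = 7.0e-08). Nolc1, a nucleolar phosphoprotein, held 527, 426 and 454 in controls against 1352, 1419, 1845 and 1543 with Myc (log2 change 1.71, SE 0.12, limma adjusted p = 2.1e-07). Nucleolin (Ncl), an abundant nucleolar RNA-binding protein, held 2892, 2574 and 2574 in controls against 6898, 7247, 8267 and 7942 with Myc (log2 change 1.5, SE 0.10, limma adjusted p = 7.0e-08).

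The core of the RNA-guided modification machines rose with them. Dkc1, the pseudouridine synthase of the H/ACA particles, held 301, 250.3 and 247 in controls against 944, 1126, 1369 and 1111 with Myc (log2 change 2.09, SE 0.14, limma adjusted p = 7.0e-08). Nop56 and Nop58, the paired scaffolds of the C/D particles that guide methylation, rose from 381 ± 10.5 to 1083 ± 127 and from 159 ± 41.3 to 598 ± 37.4 (SD), log2 changes of 1.5 and 1.93. Every one of the 44 processome and 54 large-subunit genes had a fitted change above 0, as did 14 of the 16 core particle genes.

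Genes that transcribe rRNA rose in part. Of 16 genes for RNA polymerase I and its factors 9 rose and 0 fell (median 0.56). Polr1b, the second largest subunit, held 287, 217 and 225 in controls and 725, 721, 955 and 826 in Myc-labelled libraries (log2 change 1.73, SE 0.14, limma adjusted p = 9.0e-07). Polr1a, the largest subunit, rose by 0.94, Cd3eap, a subunit also known as Polr1g, by 1.22, and Rrn3, the initiation factor, by 0.54 on the log2 scale. The promoter-binding factor Ubtf was not called, with 929 ± 135 in control and 967 ± 179 in Myc-labelled soleus (SD, limma adjusted p = 0.89), and the sign of its small difference turned when single libraries were left out. RNA polymerase III, which makes tRNAs and 5S rRNA, had 7 of 22 genes higher and 0 lower (median 0.21). Only 4 were called without control replicate 2. Its subunit Polr3g went from 30, 22.3 and 32.9 to 155, 105, 119 and 79.2 (log2 change 1.95, SE 0.31, limma adjusted p = 5.9e-04).

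Many RNA modification enzymes rose. Of 45 tRNA and rRNA modification genes 22 rose and 0 fell (median 0.60). Beside Mettl1 and Trmt61a, the cytosine methyltransferase gene Nsun2 held 753, 703 and 734 in controls against 1582, 1595, 2123 and 1939 with Myc (log2 change 1.30, SE 0.12, limma adjusted p = 1.7e-06), and the pseudouridine synthase gene Pus1 rose by 1.58. The exosome, which trims RNA ends, had 4 of 14 genes higher, with Exosc2 at 85.7, 64 and 78.7 in controls and 194, 203, 200.3 and 270.2 in Myc-labelled libraries (log2 change 1.5, SE 0.21, limma adjusted p = 1.9e-04). Only 13 modification genes and 2 exosome genes were called without Myc-labelled replicates 3 and 4, where the medians were 0.57 and 0.31.

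Arginine methylation of nucleolar and splicing proteins is carried out by a small enzyme family. Of its 11 genes and partners 7 rose and 0 fell (median 0.83). Prmt3, which methylates a small-subunit ribosomal protein, held 256, 173 and 284 in controls against 955, 782, 958 and 869 with Myc (log2 change 1.93, SE 0.16, limma adjusted p = 9.1e-07). Prmt5, the main symmetric methyltransferase, held 590.2, 688 and 648 in controls against 1249.9, 1183, 1347 and 1325 with Myc (log2 change 0.99, SE 0.10, limma adjusted p = 8.4e-06), and Prmt1, the main asymmetric one, rose by 1.06. The calls of Prmt1, Prmt3 and Prmt5 held under every alternative tried, and 7 genes of the list were higher without Myc-labelled replicates 3 and 4.

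Nuclear transport and splicing rose to a lesser degree, and few genes of RNA polymerase II rose. Of 56 nuclear pore and transport genes 16 rose (median 0.31), among them the import receptor Kpnb1, which went from 1547, 1523 and 1540.2 to 2750.0, 2702, 2913 and 2624 (log2 change 0.84, SE 0.09, limma adjusted p = 9.5e-06). Of 65 splicing factors 18 rose (median 0.29), among them Hnrnpa1 by 0.93 and the U2 protein gene Snrpa1 by 1.19. None fell in either list, and 11 splicing factors were called without Myc-labelled replicates 3 and 4. Of 44 genes of RNA polymerase II and Mediator 2 rose and 0 fell (median 0.14), a share below the background of 7.06%, and 0 rose without Myc-labelled replicates 3 and 4. The largest subunit Polr2a held 1199.9 ± 41.8 and 1036 ± 119 (SD, limma adjusted p = 0.26). The shared subunit Polr2e rose by 0.60, a call lost without Myc-labelled replicates 3 and 4 (limma adjusted p = 0.073).

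**Figure D4:**
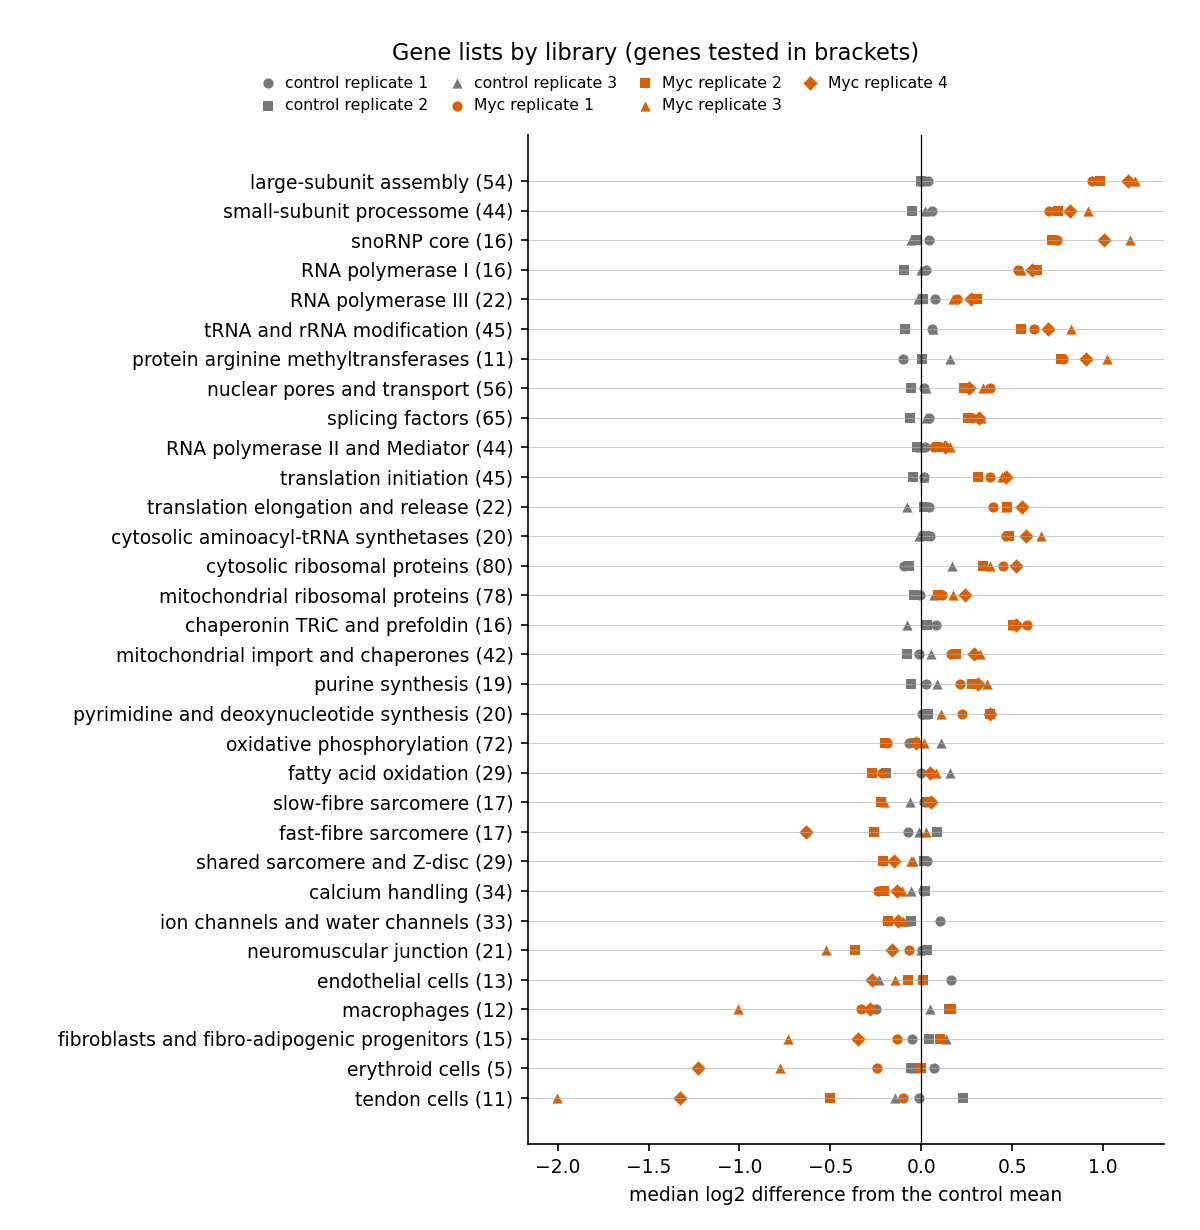
Median log2 difference of each gene list from the control mean (horizontal axis) in each of 7 libraries, with the number of genes tested in brackets. All 4 Myc-labelled libraries stand above all controls for the ribosome assembly, RNA modification and cytosolic translation lists, while marker lists of other cell types, at the foot, differ among the Myc-labelled libraries, as the tendon list does, from -0.10 to -2.0.

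The translation machinery rose broadly, with lower medians than ribosome assembly. Of 45 initiation factor genes 24 rose and 0 fell (median 0.42), and 15 were called without Myc-labelled replicates 3 and 4. Eif4a1, the helicase that unwinds mRNA leaders, held 1068, 889.5 and 965 in controls against 2361, 2147, 2558 and 2507 with Myc (log2 change 1.30, SE 0.10, limma adjusted p = 5.7e-07). Eif3d, a cap-contacting subunit of initiation factor eIF3, held 887, 852 and 819 in controls against 1752, 1687, 1863 and 1874 with Myc (log2 change 1.07, SE 0.09, limma adjusted p = 1.7e-06), and Eif1a, which helps scan for the start codon, rose by 1.37. Of 22 elongation and release genes 15 rose and 0 fell (median 0.46). Eef1e1, a scaffold of the multi-synthetase complex, held 145, 141 and 127 in controls against 519.8, 390.1, 534 and 583 with Myc (log2 change 1.86, SE 0.16, limma adjusted p = 1.5e-06). Abce1, which recycles ribosomes, rose by 1.06 and Eif5a, which helps ribosomes through difficult peptide bonds, by 0.88. The translocase gene Eef2, the most abundant of all higher genes, held 29953, 28844 and 28171 in controls against 39600.0, 38272, 46825 and 47298 with Myc (log2 change 0.56, SE 0.10, limma adjusted p = 0.0014).

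Most genes that charge tRNAs rose too. Of 20 cytosolic aminoacyl-tRNA synthetase genes 14 rose and 0 fell (median 0.51). Vars, for valine, held 737, 753 and 576 in controls against 1513, 1564, 1824 and 1919 with Myc (log2 change 1.31, SE 0.12, limma adjusted p = 2.8e-06), and Iars, for isoleucine, held 1188, 1166 and 1363 in controls against 2282, 2469, 2619 and 2608 with Myc (log2 change 1.01, SE 0.10, limma adjusted p = 4.2e-06). Of 17 mitochondrial synthetases 6 rose, led by Ears2, from 95.4, 123 and 134 to 392, 502, 488 and 465 (log2 change 1.97, SE 0.17, limma adjusted p = 1.2e-06). The groups did not overlap for Vars, Iars or Ears2.

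Ribosomal protein genes rose by smaller amounts, on top of much higher levels. Of 80 tested 43 rose and 0 fell (median 0.42), and together they took 1.05% ± 0.0949 of control libraries and 1.47% ± 0.0952 of Myc-labelled libraries (SD), without overlap. Rpl7a held 1064, 1175 and 958 in controls against 2040.3, 1883, 1894 and 2122 with Myc (log2 change 0.90, SE 0.10, limma adjusted p = 1.8e-05), and Rpl12 held 3181, 3071 and 2911 in controls against 5516, 5119, 5210.1 and 6433 with Myc (log2 change 0.86, SE 0.10, limma adjusted p = 2.3e-05). Many ribosomal protein genes have near-identical processed copies, and reads can be split between them: Rps6 held 107 ± 22.8 and 187 ± 70.5 (limma adjusted p = 0.13), while its pseudogene Rps6-ps4 held 5142 ± 426 and 8260.3 ± 503 (SD, limma adjusted p = 1.4e-04). Rps6 was called when Myc-labelled replicate 3 was left out (limma adjusted p = 0.046). Without Myc-labelled replicates 3 and 4, 24 genes of the list were called, with a median of 0.41, and without control replicate 1 the count was 28. Mitochondrial ribosomal proteins moved less, with 13 of 78 higher and 0 lower (median 0.15), and the largest called rise was Mrps18b at 0.88. Only 6 of these genes were called without control replicate 2, and 6 without Myc-labelled replicates 3 and 4. In the 17 lists on ribosome production, RNA and translation together limma called 0 genes lower, and 6 were lower at an unadjusted p under 0.05. Over all 12745 genes tested 1118 were lower at that unadjusted threshold.

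Of 26 pairs of paralogs with both genes tested, 10 had 1 gene higher and the other not called. In 2 pairs both were higher, and in 12, among them the enolase, creatine kinase and phosphoglycerate mutase pairs of general and muscle forms, neither was called. Rpl3 and Rpl3l encode the same position of the large subunit, Rpl3l being the form of striated muscle. Rpl3 held 496, 544 and 578 in controls and 1488, 1472, 1887 and 2115 in Myc-labelled libraries (log2 change 1.67, SE 0.13, limma adjusted p = 5.7e-07). Rpl3l held 5510.0, 5918 and 6186 in controls against 4084, 4545, 5549 and 4660.2 with Myc (log2 change -0.33, SE 0.11, limma adjusted p = 0.068), and it passed the test without Myc-labelled replicate 3 (limma adjusted p = 0.013), without replicates 3 and 4 (0.024) and with the replicate block (0.040). Eef1a1, the general elongation factor, rose from 7975 ± 829.5 to 11263 ± 1523 (SD, log2 change 0.49, limma adjusted p = 0.011), a call lost without control replicate 3 (0.051), while its muscle form Eef1a2 held 33389 ± 4009.6 and 36524 ± 2434 (SD, limma adjusted p = 0.48). Eif4a2 rose by 0.42, less than Eif4a1, and was no longer called when control replicate 2 (limma adjusted p = 0.081) or Myc-labelled replicates 3 and 4 (0.086) were left out. The differences between paralogs were not themselves tested.

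In nucleotide synthesis some genes were called higher, and the test could miss small rises of the others. Of 20 pyrimidine and deoxynucleotide genes 6 rose and 0 fell (median 0.12), and 13 lay above control. Beside Dctd and Cad, the CTP synthase gene Ctps held 331, 291 and 320.5 in controls against 1076, 1173, 1289.6 and 1133 with Myc (log2 change 1.89, SE 0.11, limma adjusted p = 3.8e-08), while its paralog Ctps2 held 68, 66 and 93.9 in controls against 79.8, 53.6, 58.7 and 68.3 with Myc (log2 change -0.22, SE 0.28, limma adjusted p = 0.71). Nme1, a nucleoside diphosphate kinase, rose by 1.28. Of 19 purine genes 6 rose and 0 fell (median 0.28), and 15 lay above control. Atic, which closes the purine ring, held 489.5, 455 and 501 in controls against 1655, 1589, 1711 and 1689 with Myc (log2 change 1.78, SE 0.10, limma adjusted p = 2.1e-08). Impdh2, the first step toward GTP, held 278, 254 and 257 in controls against 701, 735, 788 and 924 with Myc (log2 change 1.57, SE 0.13, limma adjusted p = 8.3e-07), and its paralog Impdh1 rose by 1.16.

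The AMP deaminases moved in opposite directions. Ampd1, the muscle form that feeds the purine nucleotide cycle, fell from 4338, 4370.0 and 5528 to 2909.7, 2876, 3681 and 3346 (log2 change -0.57, SE 0.11, limma adjusted p = 0.0041), without overlap. Ampd2, the form of other tissues, rose from 51.2, 97 and 101 to 172, 208, 159 and 127 (log2 change 1.03, SE 0.27, limma adjusted p = 0.022). The Ampd2 call was lost without control replicate 1 (limma adjusted p = 0.11), Myc-labelled replicate 1 (0.053) or Myc-labelled replicate 2 (0.072).

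One-carbon, polyamine and amino acid genes gave calls for some members. Of 22 serine and folate genes 6 rose and 0 fell (median 0.33). Cytosolic members were among the called ones: beside Shmt1, Mthfd1, a folate enzyme with several activities, held 599, 607 and 639.8 in controls against 1155, 1192, 1355 and 1265 with Myc (log2 change 1.01, SE 0.10, limma adjusted p = 6.0e-06), and Fpgs, which traps folates in the cell, rose by 1.47. The mitochondrial Shmt2 held 714, 738 and 745 in controls against 798, 937, 955 and 972 with Myc (log2 change 0.32, SE 0.11, limma adjusted p = 0.079), and it passed the test with libraries scaled by size (limma adjusted p = 0.034) or Myc-labelled replicate 1 left out (0.045). Of 15 polyamine and methionine salvage genes 2 rose, Odc1, the first enzyme of polyamine synthesis, from 1062, 1028 and 1375 to 2368, 2067, 2552 and 2814 (log2 change 1.09, SE 0.12, limma adjusted p = 2.3e-05) and Srm, the spermidine synthase, by 1.74, and 1 fell. Of 33 amino acid transport and sensing genes 7 rose and 0 fell, among them the neutral transporter Slc7a5, from 88.4, 192 and 137 to 400.1, 378, 294 and 419.6 (log2 change 1.47, SE 0.23, limma adjusted p = 6.4e-04), the cationic transporter Slc7a1 (1.01) and the proline synthesis gene Aldh18a1 (1.62).

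Energy pathways gave few calls with limma. Fatty acid oxidation had 0 higher and 0 lower genes of 29 (median -0.09), the tricarboxylic acid cycle 0 and 0 of 26 (median -0.08) and oxidative phosphorylation 0 and 1 of 72 (median -0.10). In the same order 26, 18 and 61 genes lay below control, while the median over all genes tested was -0.03. At an unadjusted p under 0.05 these lists had 0, 1 and 0 higher and 1, 0 and 8 lower genes. Over all 12745 genes tested 1650 were higher and 1118 lower at that threshold. Oxidative phosphorylation genes took 3.39% ± 0.266 of control libraries and 3.26% ± 0.115 of Myc-labelled libraries (SD), with overlap. Glycolysis and glycogen genes had 0 higher and 2 lower of 32. One of the latter, the insulin-responsive glucose transporter gene Slc2a4, fell from 10233, 9917 and 10056 to 6782, 7163, 8774 and 7229 (log2 change -0.43, SE 0.10, limma adjusted p = 0.0099), with every Myc-labelled library below every control. The general ADP/ATP carrier gene Slc25a5 rose by 0.76.

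Protein folding genes rose in the cytosolic chaperonin and in mitochondria. The TRiC chaperonin folds actin, tubulin and other proteins, and its 16 subunit, prefoldin and cofactor genes had 9 rises and 0 falls (median 0.5). Cct5 held 1438, 1412 and 1323 in controls against 2899, 2894, 3105 and 3310.4 with Myc (log2 change 1.13, SE 0.09, limma adjusted p = 8.6e-07), and Cct3 held 1138, 1074 and 1204 in controls against 2271, 2089, 2227 and 2564 with Myc (log2 change 1.0, SE 0.10, limma adjusted p = 4.9e-06). The list took 0.128% ± 0.00554 of control and 0.214% ± 0.00891 of Myc-labelled libraries (SD), without overlap. Of 42 mitochondrial import and chaperone genes 12 rose and 0 fell (median 0.18), with the chaperonin Hspd1 at 3289, 2939 and 3132 in controls against 6019, 5115, 6289 and 6121 with Myc (log2 change 0.91, SE 0.10, limma adjusted p = 1.0e-05), the small carrier Timm10 at 1.36 and the outer-membrane receptor Tomm70a at 0.93.

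Heat shock genes were mixed, and the unfolded protein response gave no call. Of 41 heat shock and cochaperone genes 11 rose and 1 fell (median 0.06). Without Myc-labelled replicates 3 and 4 the list had 5 rises, and without replicate 4 alone it had 7. Hsp90aa1, the inducible cytosolic HSP90, rose from 789.9, 870.1 and 749 to 1621, 1435, 1225 and 1673 (log2 change 0.88, SE 0.12, limma adjusted p = 1.0e-04). Hspa2, an HSP70 known from testis, fell from 359, 448 and 405 to 182, 244, 203 and 252 (log2 change -0.88, SE 0.16, limma adjusted p = 0.0019). The 29 genes of the unfolded protein response had 0 higher and 0 lower with limma. At an unadjusted p under 0.05 they had 1 and 2, where 1650 and 1118 of all 12745 genes tested passed. Proteasome genes had 4 higher and 1 lower of 43 (median 0.05), a share near the background of 7.06%. The activator gene Psme3 rose by 0.60. Without Myc-labelled replicates 3 and 4 the proteasome list had 1 higher gene and 0 lower, with a median of -0.04, and its lower gene was not called with any 1 library left out.

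**Figure D5:**
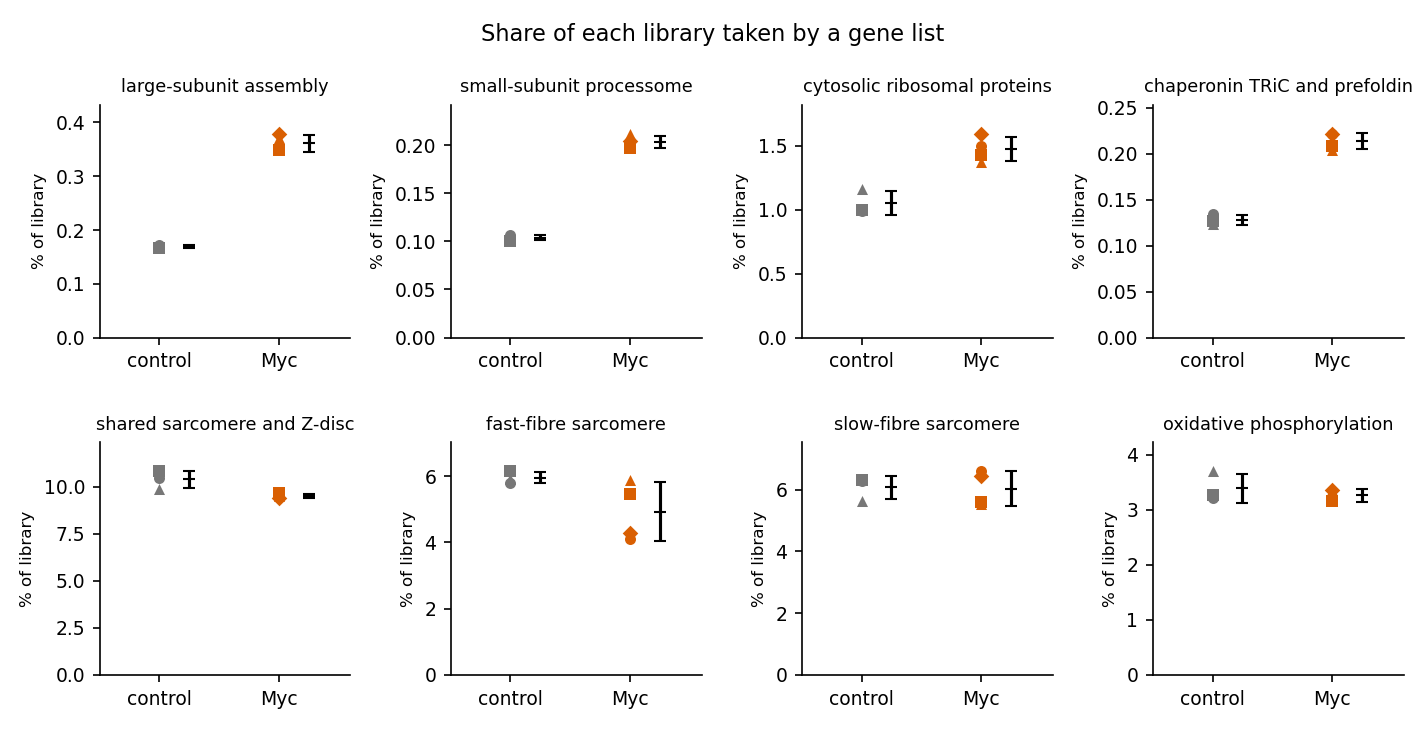
Percent of each library taken by 8 gene lists (vertical axes from 0), with each marker a library (shapes as in the plot of lists by library) and the bar beside it the mean and SD. Assembly, ribosomal protein and chaperonin shares are higher in all 4 Myc-labelled libraries, the shared sarcomere share is lower in all 4, and slow-fibre and oxidative phosphorylation shares overlap.

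Lower genes were fewer and less stable, and several encode parts of the excitable and contractile apparatus of the fibre. At a mean level of 50 normalised reads or more, the largest fall was that of Mrln, which encodes myoregulin, a small peptide that restrains the sarcoplasmic calcium pump. It held 133, 117 and 150.3 in controls and 39.9, 41, 51.8 and 12.9 in Myc-labelled libraries (log2 change -2.0, SE 0.40, limma adjusted p = 0.0042). Aqp4, the water channel of the fibre membrane, held 219, 132 and 242 in controls against 37, 85.4, 70.2 and 97 with Myc (log2 change -1.47, SE 0.32, limma adjusted p = 0.0085). Lrrc38, an auxiliary subunit of calcium-activated potassium channels, held 227, 220.2 and 239 in controls against 139, 80.4, 77.1 and 91 with Myc (log2 change -1.27, SE 0.23, limma adjusted p = 0.0016). No Myc-labelled library reached the lowest control in these genes. In bulk muscle, fewer cells of a type and less RNA per cell cannot be told apart.

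The remaining stable falls among the 15 largest were of other kinds. Sbk3, of a muscle kinase family, held 159.9, 238 and 305 in controls against 78.8, 54.4, 111 and 109.8 with Myc (log2 change -1.40, SE 0.28, limma adjusted p = 0.0042). Cntfr, the receptor for ciliary neurotrophic factor, held 186, 220.2 and 219.5 in controls against 97.3, 119.7, 81.8 and 53.4 with Myc (log2 change -1.29, SE 0.26, limma adjusted p = 0.0039). H2-Ab1, a chain of class II histocompatibility antigens made by antigen-presenting cells, held 172, 184 and 224 in controls against 76.9, 122, 77.1 and 73.2 with Myc (log2 change -1.16, SE 0.24, limma adjusted p = 0.0043), and its call was lost without Myc-labelled replicates 3 and 4 (limma adjusted p = 0.054). These 6 genes were those of the 15 that kept their call with any 1 library left out. Rbm4b, an RNA-binding protein gene (-1.73), lost it when control replicate 3 was left out (limma adjusted p = 0.085) and without Myc-labelled replicates 3 and 4 (0.055). Reln, a secreted glycoprotein gene (-1.48), lost it without control replicate 2 (0.091) or 3 (0.072) or Myc-labelled replicate 2 (0.051) or 4 (0.066). Gadd45a, a stress-response gene that rises in muscle atrophy (-1.17), lost it without control replicate 3 (0.11) or Myc-labelled replicate 2 (0.060) or 4 (0.064).

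Calcium-handling and channel genes held more falls than the background of 2.23%. Of 34 calcium-handling genes 6 fell and 1 rose (median -0.19), and 6 fell without Myc-labelled replicates 3 and 4, 3 without control replicate 1 and 2 without control replicate 2. The calmodulin-dependent kinase genes split: Camk2d fell from 717, 803 and 764 to 506, 507, 511 and 527 (log2 change -0.57, SE 0.11, limma adjusted p = 0.0025), while Camk2a rose from 1497, 1659 and 1456 to 2119, 2738, 2507 and 2282 (log2 change 0.64, SE 0.10, limma adjusted p = 6.5e-04). Both calls held under every alternative tried. Of 33 ion and water channel genes 7 fell and 0 rose (median -0.20). The channel falls numbered 3 without control replicate 1 or 2, 4 without control replicate 3 or Myc-labelled replicate 4, and 6 without Myc-labelled replicates 3 and 4. Sypl2, a triad membrane protein gene outside these lists, fell from 5735, 5959.9 and 4792 to 3943, 4466, 3503 and 3476 (log2 change -0.52, SE 0.11, limma adjusted p = 0.0062), a call lost without Myc-labelled replicates 3 and 4 (limma adjusted p = 0.085).

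No sarcomere gene was called higher, and the shared and fast-fibre lists held more falls than the background of 2.23%. Most of the shared genes, 25 of 29, lay below control. Of 29 genes shared by all fibres 5 fell and 0 rose (median -0.17), and their summed share went from 10.4% ± 0.460 to 9.51% ± 0.108 (SD), without overlap. Those falls numbered 1 without control replicate 2, 2 without control replicate 1 or Myc-labelled replicate 1 or 4, and 4 without Myc-labelled replicates 3 and 4. Pdlim3, a Z-disc adaptor, fell from 2859, 3620.3 and 3374 to 1882, 2188, 2149 and 1672 (log2 change -0.74, SE 0.11, limma adjusted p = 4.4e-04). Of 17 slow-fibre genes 1 fell (median -0.10), with shares of 6.07% ± 0.377 and 6.04% ± 0.555 (SD). The gene that fell was Myoz3, a calsarcin known from fast fibres, which does not match the name of the list. It held 1144, 1267 and 1429.9 in controls against 518, 686, 991 and 532 with Myc (log2 change -0.95, SE 0.21, limma adjusted p = 0.022), and its call was lost without control replicate 2 (limma adjusted p = 0.081) or 3 (0.11) or Myc-labelled replicate 2 (0.052). Of 17 fast-fibre genes 2 fell (median -0.41). Without Myc-labelled replicates 3 and 4 the fast-fibre list had 5 falls, without replicate 3 alone 7 and without control replicate 2 it had 0. The falls with all libraries were the fast myosin light chain gene Mylpf, from 22009, 23408 and 22415 to 14552, 19184, 17580.5 and 14579 (log2 change -0.47, SE 0.11, limma adjusted p = 0.010), lost without control replicate 2 (limma adjusted p = 0.060), and the tropomyosin gene Tpm1 (-0.41, limma adjusted p = 0.035), lost without control replicate 1 (0.071), 2 (0.11) or 3 (0.12), without Myc-labelled replicate 1 (0.091) or 4 (0.12) and without robust moderation (0.072).

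The share of fast-fibre genes differed among libraries of the same group. The fast-fibre list took 5.80%, 6.14% and 5.92% of the control libraries and 4.09%, 5.46%, 5.89% and 4.27% of the Myc-labelled libraries. Myc-labelled replicate 3 lay within the range of the controls. The fastest myosin, Myh4, held 664, 26824 and 10303 in controls and 318, 589, 17469 and 243 in Myc-labelled libraries (limma adjusted p = 0.56). Its values ranged widely within both groups, and its part in other results was not tested.

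Genes of muscle breakdown and growth gave few calls, though with all libraries both lists held more falls than the background of 2.23%. Of 38 autophagy and lysosome genes 4 fell and 0 rose (median -0.16), and 1 fell without control replicate 3 or Myc-labelled replicate 2. Tfeb, the transcription factor of lysosome genes, fell from 899, 1063 and 1017 to 532, 687, 801 and 673 (log2 change -0.57, SE 0.13, limma adjusted p = 0.010), a call lost without control replicate 2 (limma adjusted p = 0.060). Gabarap, which coats autophagosomes, fell by 0.39, lost without control replicate 3 (0.080) or Myc-labelled replicate 2 (0.057). Of 38 atrophy and growth regulators 1 rose and 3 fell, with 1 fall without control replicate 3, Myc-labelled replicate 4 or both Myc-labelled replicates 3 and 4. Trim55, a muscle RING-finger ubiquitin ligase of the sarcomere, fell from 1165, 948 and 1089 to 804, 713, 751 and 698 (log2 change -0.52, SE 0.11, limma adjusted p = 0.0051), lost without Myc-labelled replicates 3 and 4 (limma adjusted p = 0.051). Mstn, which encodes the growth inhibitor myostatin, was not called: it held 30.9, 47.5 and 61 in controls and 11.7, 12.6, 53 and 0 in Myc-labelled libraries (log2 change -2.22, SE 1.15, limma adjusted p = 0.31), with Myc-labelled replicate 3 inside the range of the controls.

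Myogenic transcription factors and synapse genes gave no call. Of 35 myogenic factors 0 rose and 0 fell (median -0.17), and of 21 neuromuscular junction genes 0 rose and 0 fell (median -0.20). Of 30 immediate-early and exercise response genes, which answer contraction, 0 rose and 0 fell. At an unadjusted p under 0.05 (limma) these 3 lists had 1, 0 and 3 higher and 5, 8 and 2 lower genes. Over all 12745 genes tested 1650 were higher and 1118 lower at that threshold. The share of lower genes in the neuromuscular junction list, 8 of 21, was above that, and 18 of its genes lay below control.

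Most partners and regulators of Myc were not called. The Max network and its cofactors had 3 rises and 0 falls among 22 genes (median 0.06). That was 13.6% called higher, against 7.06% of all genes tested. Kat2a, a histone acetyltransferase that Myc recruits, held 287, 398 and 304 in controls against 594, 552, 581 and 833 with Myc (log2 change 0.95, SE 0.16, limma adjusted p = 9.0e-04). Mga, a Max-binding repressor, held 509.8, 493 and 436 in controls against 861, 822, 742 and 639 with Myc (log2 change 0.67, SE 0.13, limma adjusted p = 0.0023). Wdr5, a chromatin protein that binds Myc, held 460.3, 446 and 499 in controls against 641, 639.5, 815 and 716 with Myc (log2 change 0.58, SE 0.12, limma adjusted p = 0.0054), a call lost without Myc-labelled replicates 3 and 4 (limma adjusted p = 0.085).

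Growth-arrest and cell-cycle genes gave few calls, with the list for entry into S phase above the background. Trp53, which encodes the tumour suppressor p53, rose from 159, 161 and 146 to 257, 329.8, 263 and 285 (log2 change 0.86, SE 0.17, limma adjusted p = 0.0027), and Aen, a nuclease induced by p53, from 864, 886 and 779 to 1682, 1442, 1896 and 1596 (log2 change 0.97, SE 0.11, limma adjusted p = 1.9e-05). The p53 list as a whole had 2 rises and 1 fall among 26 genes, a share near the background of 7.06%, and 5 rises with the replicate block. Of 27 genes for entry into S phase 5 rose and 1 fell, with 18.5% called higher, above that background. Only 1 rose without Myc-labelled replicates 3 and 4, 2 without control replicate 2 and 3 with the replicate block. The cyclin-dependent kinase inhibitor gene Cdkn1b fell from 753, 719 and 768 to 565, 552, 491 and 449 (log2 change -0.54, SE 0.12, limma adjusted p = 0.0069), a call lost without Myc-labelled replicates 3 and 4 (limma adjusted p = 0.083), and Tfdp1, the partner of E2F factors, rose by 0.56. Of 33 replication and mitosis genes 2 rose and 0 fell, again near that background, and 1 rose without Myc-labelled replicates 3 and 4. The chromatin remodeller gene Smarca4 rose by 0.79.

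Head-to-head gene pairs with both genes higher were few. Per RefSeq, 381 pairs of tested genes lay head to head with starts at most 1000 bases apart. Of their 762 genes 102 were higher, a larger share than the 7.06% of all genes tested. In 4 pairs both genes were higher: Alg3 with Eef1akmt4, Gtf3c4 with Ddx31, Emg1 with Phb2 and Ptcd3 with Polr1a. In 94 pairs exactly 1 gene was higher. Among partners of a higher gene 7.84% were higher, against the 102 of 762 over all such pairs, and the partners not called had a median log2 change of 0.01.

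Markers of other cell types gave almost no call but differed among libraries. Of 9 marker lists of other cell types 1 had a called gene, the fibroblast list with Ly6a lower, and no marker tested was at 0 in any library. Ly6a held 953, 972 and 889 in controls against 778, 732, 724 and 735 with Myc (log2 change -0.34, SE 0.10, limma adjusted p = 0.046), a call lost with any 1 of the 7 libraries left out (limma adjusted p from 0.054 to 0.17), without Myc-labelled replicates 3 and 4 (0.17), with library-size (0.092) or TMM (0.052) scaling and with the replicate block (0.065). The tendon list took 0.0608% to 0.0745% of control libraries and 0.0173% to 0.0650% of Myc-labelled libraries. It had a median log2 change of -0.99, with 0 higher and 0 lower of 11, and per library it stood at -0.10, -0.50, -2.0 and -1.33 in Myc-labelled replicates 1 to 4. Without replicates 3 and 4 its median was -0.31, and 2 of its genes were lower. Its marker Tnmd held 293, 329 and 268 in controls and 222, 206, 56.4 and 99.95 in Myc-labelled libraries (limma adjusted p = 0.20). The erythroid list took 0.0569% to 0.0587% and 0.0256% to 0.0615%, and stood at -0.25, -0.0026, -0.78 and -1.23, and the haemoglobin gene Hbb-bs held 1323, 1222 and 1276 in controls against 1073, 1271, 742 and 572 with Myc (limma adjusted p = 0.30, and 0.044 without Myc-labelled replicate 2). Fibroblast markers stood at -0.13, 0.10, -0.73 and -0.35, and macrophage markers at -0.33, 0.17, -1.01 and -0.28. Tendon and erythroid values were lowest in replicates 3 and 4. Endothelial markers had a median of -0.14. Schwann cell markers stood at -0.019, 0.94, 0.54 and 0.05 in Myc-labelled replicates 1 to 4, and took 0.0163% to 0.0237% of control libraries and 0.0471% of Myc-labelled replicate 2, the highest of all 7. Adipocyte markers stood at -0.83, 0.59, -0.41 and -0.66, so replicates 1 and 2 lay on opposite sides of the controls. The large-subunit assembly medians were 0.94, 0.98, 1.17 and 1.13 in the same order. The part of these cells in the muscle results was not tested.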

How the data were processed

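Total RNA of 7 soleus samples was sequenced and deposited by the authors as 1 table of genes by libraries. Values are signal: the authors' estimated read counts per gene divided by a factor for each library, as the deposited values show. The submitters' processing notes name STAR 2.7.8a, DESeq2 and Partek, and both mm10 and mm39, without roles. Where reads are shared between near-identical genes, their estimates are uncertain. Estimated reads, recovered approximately, were 11090000 to 14850000 per library, with 92.1% to 93.4% of low values whole. The main test was therefore not a count test, and limma-voom on these estimated reads was run among the alternatives.

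Genes with at least 10 normalised reads in 3 libraries (12745 of 13121) were tested with limma 3.58.1 (R 4.3.3, statmod 1.5.0), with trend and robust moderation, on log2(value + 1), and p-values were adjusted by Benjamini-Hochberg, with a threshold of 0.05. Fold changes are on that scale and understate changes of low genes. On data simulated from this design, the test recovered 57.6% of changes of 2-fold, 22.3% at 1.5-fold and 83.0% at 4-fold. In those data 4.45% of calls were false. The share of false calls among the genes called in the soleus libraries was not tested. Alternatives changed scaling, filter, pseudocount, moderation, the test, a replicate block and the libraries used. Promoter windows and start sites came from RefSeq tables. Of the 13121 symbols 13115 were in the RefSeq gene table.

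The members and gene lists were chosen with earlier results of these data known, so the lists are described by counts and medians, with no test of their own. Genes are named by rule: the Myc and Max network, the 15 largest rises and falls with a mean of at least 50 and no overlap, the largest of the other calls, the 10 most abundant calls in each direction, up to 4 lowest-p members of each list, and the paralog pairs. Genes outside it (Ubtf, Myh4, Mstn, Myh7, Rps6, Mybbp1a, Grwd1, Wdr43, Mdn1, Apex1, Sdad1, those of the head-to-head pairs other than Polr1a, and the unlisted genes of the closing section) were chosen after their values were seen.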

Additional observations from a re-analysis of the deposited data

Results flagged for a closer look

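In 6 of 203 sets of 4 Myc-labelled values examined, 1 library lay apart from the other 3, by a gap to its neighbour that took more of the whole range than the 95% critical value of Dixon for 4 values. Chance gives about 1 such set in 20 for unselected values. Many genes here were named for a small p or lack of overlap, so the count found cannot be judged against that rate. AI506816 had a gap of 0.932 of its range, with Myc-labelled replicate 3 lowest. Arhgdig (0.869), Rrn3 (0.947) and Exosc2 (0.853) were set apart by Myc-labelled replicate 4, and H2-Ab1 (0.899) by Myc-labelled replicate 2. The iron and haem list had 0.846.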

How the results depend on the processing

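The soleus genes higher in Myc numbered 900, from 659 to 788 with 1 library left out, and 483 without Myc-labelled replicates 3 and 4. The soleus genes lower in Myc numbered 284, from 117 to 244 with 1 library left out, 181 under library-size scaling (with 1066 higher) and 147 without both replicates. At least 2-fold, higher calls numbered 262, from 223 to 259 with 1 library left out and 174 without both, and lower calls numbered 32, from 15 to 39 with 1 library left out. The other alternatives kept these counts within 1.5 times. In all 17 alternatives together, 450 higher and 47 lower genes kept their call. Titles number the replicates, but same-numbered libraries deviated together with r of 0.00, 0.08 and 0.14, so the numbers were not taken to pair them. With the replicate block 882 genes were higher and 334 lower, 244 and 41 of them at least 2-fold, and 801 and 223 were also called without the block. The log2 change of Ubtf, 0.05 with all libraries, ranged from -0.050 to 0.16 with 1 library left out. The median of the iron, atrophy, p53 and unfolded protein lists changed sign under library-size scaling, so no direction is given for these medians. The planned edgeR test was not run, because the values are not whole reads. Depth limits the genes of lowest level, where the median SE of a log2 change was 0.467.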

Other observations

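Of the higher genes 525, and of the lower genes 241, were in none of the 60 gene lists. The 5 of these higher genes with the smallest p were Ddx21, Gpatch4, Ppia, C1qbp and Fam185a. Ddx21, a nucleolar RNA helicase, held 864, 753 and 841 normalised reads in controls and 2399.6, 2344, 3088 and 2516 in Myc-labelled libraries (log2 change 1.65, SE 0.11, limma adjusted p = 9.9e-08), and Gpatch4 held 238, 220.2 and 209 and 839, 756, 1082 and 782 (log2 change 1.94, SE 0.14, limma adjusted p = 2.1e-07). Ppia, the abundant proline isomerase cyclophilin A, held 1488, 1489 and 1436 and 3506, 3445, 3207 and 3936 (log2 change 1.26, SE 0.09, limma adjusted p = 4.0e-07). C1qbp, a mitochondrial matrix protein gene, rose by 1.25 on the log2 scale, and Fam185a by 1.72. Ppia is often used as a reference gene in muscle, and here every Myc-labelled library was above every control.

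Among unlisted lower genes, Gpr146, a G-protein-coupled receptor gene, held 961, 926 and 857 in controls and 535, 516, 517 and 434 in Myc-labelled libraries (log2 change -0.87, SE 0.12, limma adjusted p = 9.3e-05). Plin2, which coats lipid droplets, held 702, 678 and 654 and 371, 427, 405 and 404 (log2 change -0.76, SE 0.12, limma adjusted p = 4.1e-04). Sync, an intermediate filament protein gene of muscle, held 425, 488 and 558 and 216, 240.0, 299 and 251 (log2 change -0.96, SE 0.15, limma adjusted p = 5.8e-04). The cytokine signalling kinases Jak1 and Jak2 fell by 0.48 and 0.84 on the log2 scale. The groups did not overlap for these genes.

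Families sharing the start of a symbol were picked from 158 with at least 10 tested genes after their values were seen, and their counts stand against 7.06% of all genes tested. Of 34 tested Ddx helicase genes 12 rose and 0 fell, with a median log2 change of 0.35. Of 15 Snhg genes, hosts of small nucleolar RNAs, 5 rose and 0 fell (median 0.81). Of 10 Tomm genes of the mitochondrial outer membrane 5 rose (median 0.38), and of 12 Naa genes of protein amino-terminal acetylation 5 rose (median 0.17).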
